A study of Mus musculus with 2 samples.

Results

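Cholesterol and fatty acid synthesis was described here through 34 genes, the enzymes of the mevalonate, sterol and fatty acid routes with their sterol sensors and the fatty acid carrier gene Fabp5, in 2 cells taken from the eyes of CD1 mice. A gene entered through every probe set whose only symbol in the platform annotation is that gene, which gave 77 of 45101 probe sets and 33 of 18194 named genes. The remaining listed gene, Acat2, had no such probe set and was not analysed here. One array held a cell from postnatal day 0 (P0), here the newborn cell, and the other a cell from embryonic day 12.5 (E12.5), here the embryonic cell. Both came from papain-dissociated retina of this outbred albino strain, the labels give no mutant allele or drug for either, and both are labelled ciliary body, the pigmented and non-pigmented epithelium at the rim of the retina. The submitters chose that label from the expression profiles themselves. Neither age has a replicate, so every difference is one between these 2 cells and no test between the ages was possible.

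Cells build cholesterol from acetyl-CoA through mevalonate, isoprenoid diphosphates, squalene and a series of sterols, and build fatty acids from the same precursor. Both routes are driven by the SREBP transcription factors, which Scap and the Insig proteins hold in the endoplasmic reticulum while sterols are plentiful and which are cut free in the Golgi when sterols run low. The developing nervous system makes most of its cholesterol itself, and its growing membranes need unsaturated and long-chain fatty acids.

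Signals are MAS5 intensities on a linear scale, with each array scaled on its own by the authors. The median signal over all probe sets was 42.2 in the newborn cell and 43.2 in the embryonic cell. A background limit was set for each array at the 99th percentile of 176 probe sets for genes that the eye is not known to use, a signal of 349 in the newborn cell and 258 in the embryonic cell. A gene was called higher in a cell when its signal there passed the limit and the ratio was 4-fold or more, with each signal first raised to its limit. Folds against a cell below its limit are lower bounds, written "at least", and such a gene was not detected there rather than shown to be absent. These bounds depend on the limits, which at the 95th percentile were 90.9 in the newborn and 112 in the embryonic cell. From 27 bacterial control probe sets the limits were 93.9 in the newborn and 111 in the embryonic cell. Log2 ratios of probe sets that read the same gene, both cells above the limit, had an SD of 0.83 over 975 genes. A 4-fold ratio (2 on the log2 scale) exceeded that spread, which holds no variation between cells. The spread leaves out probe sets below a limit in either cell, so it does not cover folds that are lower bounds. The ratio of 3′ to 5′ probe set signal was 2.20 in the newborn cell and 6.17 in the embryonic cell for Actb, and 1.43 in the newborn and 1.06 in the embryonic cell for Gapdh. The part of RNA length in the results below was not tested.

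Most of the synthesis genes were above background, and more of them in the embryonic cell. Of 33 genes, 20 passed the limit in the newborn cell and 26 in the embryonic cell, beside 28.4% of all genes in the newborn cell and 30.3% in the embryonic cell. A total of 18 passed in both, against 18.7% of all genes. By the probe set that stands for each gene, 2 passed in the newborn cell alone (Ebp and Lss), against 9.71% of all genes, and 8 in the embryonic cell alone, against 11.6%. Further probe sets of Lss did pass the limit in the embryonic cell. Of the 18 that passed in both, 15 differed by less than 4-fold, and among all genes 2806 of 3395 did. Hmgcs1, Sqle, Dhcr7, Insig1, Scd2 and Elovl6 were within 1.5-fold on the probe set that stands for each gene. By that measure these steps were read at similar signal in both cells. The share of all genes within 1.5-fold was not counted. Further probe sets of Hmgcs1 and Scd2 differed by more than 1.5-fold. Of all 33, 4 were called higher in the newborn cell (12.1%, against 9.24% of all genes) and 7 in the embryonic cell (21.2%, against 7.30%). A call needs a signal above the limit, which more of the synthesis genes passed. Of genes above it in the newborn cell, 4 of 20 synthesis genes and 1681 of all 5161 were called higher there. In the embryonic cell these numbers were 7 of 26 and 1328 of 5504. Among the 28 genes above a limit in at least 1 cell the median log2 ratio of P0 over E12.5 was -0.44, against 0.02 for all 7270 such genes. A mean over the probe sets of a gene was also used in place of the probe set that stands for it. With that mean, the median log2 ratio of the synthesis genes turned to 0.24 and their calls became 3 in each direction. By that mean, 14 of the 33 genes passed the limit in the newborn cell, 20 in the embryonic cell and 12 in both.

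**Figure D1:**
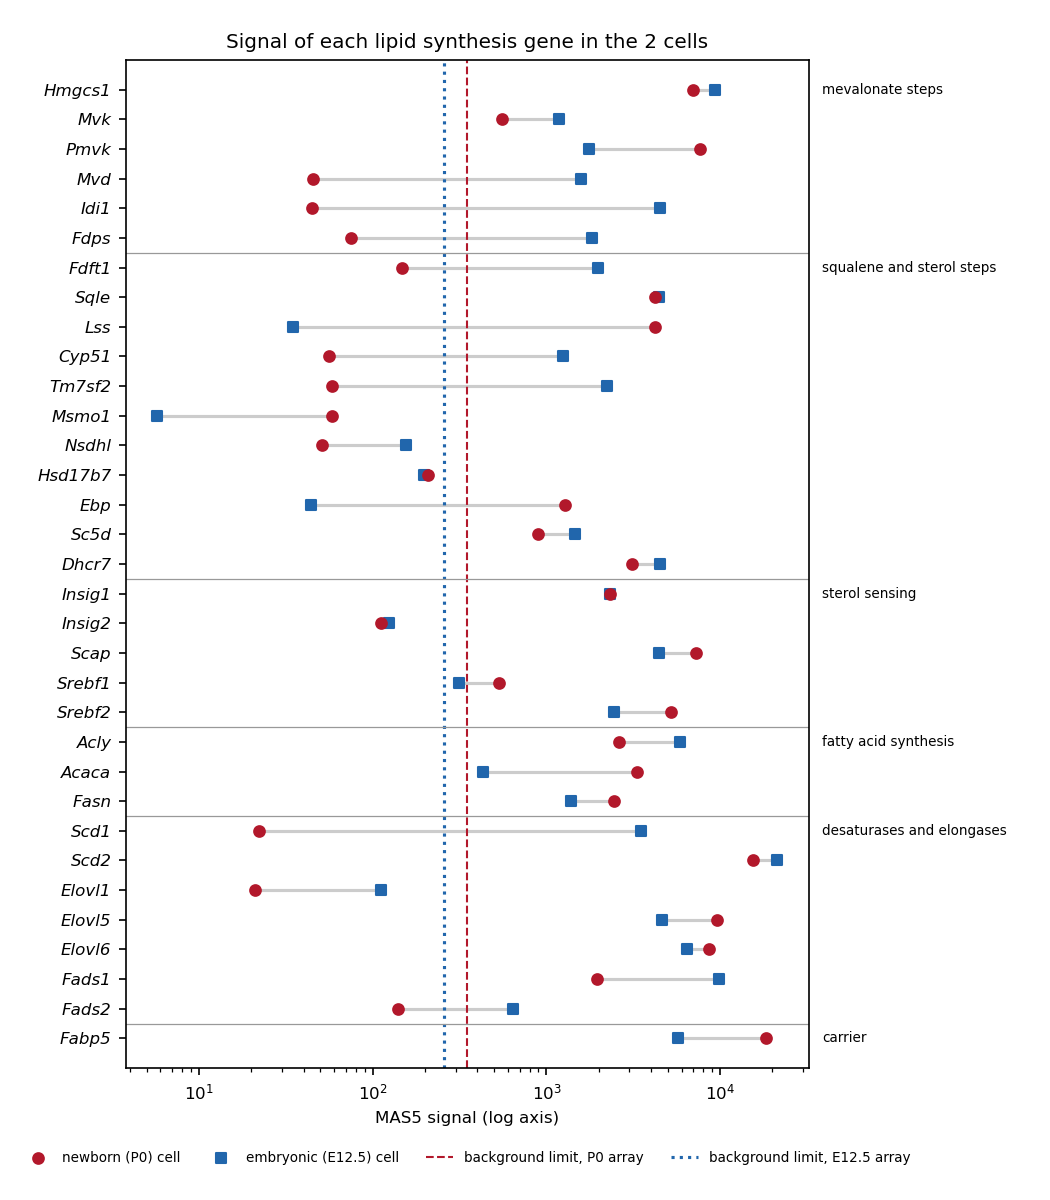
MAS5 signal of the 33 genes (rows, grouped by role) in the newborn cell (circles) and the embryonic cell (squares), 1 value per cell on a log axis, with the background limits of 349 (newborn) and 258 (embryonic) as vertical lines. Mvd, Idi1, Fdps, Fdft1, Cyp51, Tm7sf2, Scd1 and Fads2 lie left of the limit in the newborn cell and right of it in the embryonic cell, and Lss and Ebp do the reverse.

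The share of genes read in 1 cell alone was set beside that of all genes of like signal, in a range chosen after the values were seen. Of 17 synthesis genes with an E12.5 signal between 1000 and 5000, 7 (41.2%) were below the limit in the newborn cell, and 40.6% of all 2880 genes in that range were. Of 9 with a P0 signal in the same range, 2 (22.2%) were below the limit in the embryonic cell, against 37.8% of 3067 genes. Being read in 1 cell only was thus common at this signal, and for the embryonic cell the share of synthesis genes was close to that of all genes. With the signals as deposited, 4 of 11 synthesis gene calls (36.4%) were on the P0 side, against 55.9% of the calls over all genes. After scaling both arrays to the spiked-in hybridisation controls, which moved the median log2 ratio of all genes read in both cells to -0.86, these shares were 18.2% of synthesis gene calls and 33.1% of all calls. Most synthesis gene calls were thus on the E12.5 side under both scalings.

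**Figure D2:**
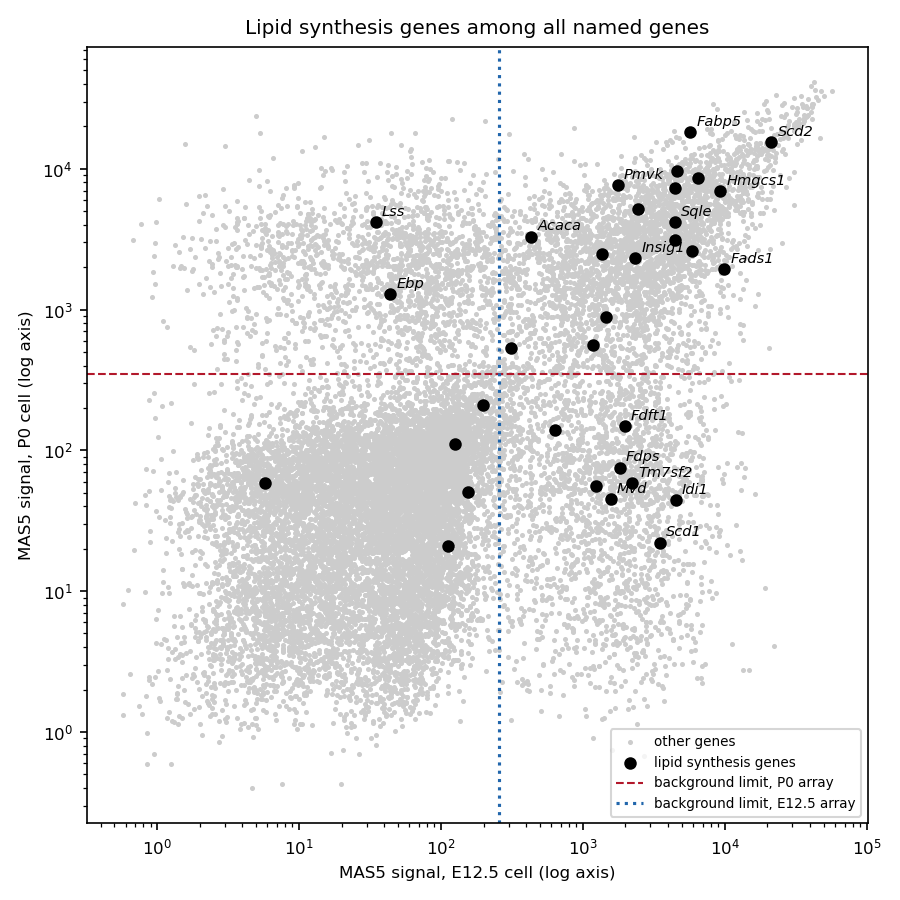
MAS5 signal in the newborn cell (vertical) against the embryonic cell (horizontal) on log axes, 1 point per named gene, with the 33 lipid synthesis genes in black and the background limits as lines. The 18 genes above both limits lie in the main cloud at the upper right, and the 8 read in the embryonic cell alone lie among many other genes in the lower right.

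Of the 6 measured mevalonate genes, all were above the limit in the embryonic cell and 3 in the newborn cell. The other 3, Mvd, Idi1 and Fdps, had E12.5 signals in the range where 40.6% of all genes were below the P0 limit. Hmgcs1, whose product makes HMG-CoA, had a signal of 6969 in the newborn cell and 9285 in the embryonic cell. Of its 4 further probe sets, 3 had ratios of the same sign under 2-fold and another, newborn 1858 and embryonic 5.70, was at least 7.20-fold higher in the newborn cell. Mevalonate kinase (Mvk) had 556 in the newborn and 1182 in the embryonic cell, a ratio of 2.12-fold toward the embryonic cell. Its other probe set (newborn 8.91, embryonic 1199) was at least 3.43-fold higher in the embryonic cell. Phosphomevalonate kinase (Pmvk), which acts on the product of Mvk, had 7674.5 in the newborn cell and 1766 in the embryonic cell and was 4.35-fold higher in the newborn cell, the only mevalonate gene called in that direction. Its call was lost under scaling to the spike-ins (log2 ratio 1.25).

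Mvd, the decarboxylase that makes isopentenyl diphosphate, had 45.2 in the newborn cell and 1576 in the embryonic cell, at least 4.52-fold higher in the embryonic cell. The isomerase gene Idi1, next in the chain, had 44.5 in the newborn and 4514 in the embryonic cell and was at least 12.9-fold higher there. Its other probe set (newborn 1.78, embryonic 1483) was called the same way at no less than 4.25-fold. Farnesyl diphosphate synthase (Fdps), which joins these units at the branch between sterols and prenyl groups, had 75.4 in the newborn and 1822 in the embryonic cell, at least 5.22-fold higher in the embryonic cell. The other probe set of Fdps was at background in both cells (newborn 12.1, embryonic 9.57). Idi1 kept its call under all 7 alternatives that change signals or limits, while averaging probe sets ended those of Mvd (log2 ratio -1.31) and Fdps (0.44, both cells then below their limits). The call of Mvd was also lost without cross-hybridising probe sets (-0.45), since its other probe set read 6.03 in the newborn and 477 in the embryonic cell.

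Upstream sequences of 4 enzymes of this chain are shown because the enzymes work in the same chain, Pmvk, Mvd and Idi1 one after another, and yet differed in direction: Hmgcs1 was similar in the cells, Pmvk was higher in the newborn cell and Mvd and Idi1 in the embryonic cell. They are the 250 bases before the most upstream RefSeq start on GRCm38.p6, on the strand of the gene, at chr13:119690101-119690350 (plus strand, Hmgcs1), chr3:89454291-89454540 (plus strand, Pmvk), chr8:122443423-122443672 (minus strand, Mvd) and chr13:8885356-8885605 (plus strand, Idi1). Capitals mark CCAAT on either strand (ATTGG on the strand shown), the letters read by NF-Y, a partner of SREBP, and TCACNCCAC, a form of the sterol regulatory element.
Hmgcs1: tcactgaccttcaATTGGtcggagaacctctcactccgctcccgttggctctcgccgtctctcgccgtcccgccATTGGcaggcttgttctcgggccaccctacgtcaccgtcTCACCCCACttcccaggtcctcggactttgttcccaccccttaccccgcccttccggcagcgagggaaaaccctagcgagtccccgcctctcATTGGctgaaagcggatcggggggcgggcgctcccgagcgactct
Pmvk: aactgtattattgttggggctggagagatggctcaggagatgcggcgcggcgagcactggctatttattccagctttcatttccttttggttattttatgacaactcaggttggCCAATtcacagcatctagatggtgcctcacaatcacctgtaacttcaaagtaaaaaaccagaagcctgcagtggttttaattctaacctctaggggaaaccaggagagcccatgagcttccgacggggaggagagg
Mvd: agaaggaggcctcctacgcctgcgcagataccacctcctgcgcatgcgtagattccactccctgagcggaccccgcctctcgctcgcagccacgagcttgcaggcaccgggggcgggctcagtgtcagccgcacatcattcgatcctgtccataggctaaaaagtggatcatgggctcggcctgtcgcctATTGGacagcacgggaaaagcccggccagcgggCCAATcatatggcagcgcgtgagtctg
Idi1: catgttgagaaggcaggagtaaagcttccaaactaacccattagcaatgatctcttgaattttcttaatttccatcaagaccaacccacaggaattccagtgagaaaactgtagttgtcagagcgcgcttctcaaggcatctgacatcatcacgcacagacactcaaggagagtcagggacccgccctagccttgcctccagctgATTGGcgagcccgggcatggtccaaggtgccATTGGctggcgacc
Hmgcs1 held TCACNCCAC at 137 bases before the start and 3 copies of CCAAT, Mvd and Idi1 held 2 copies of CCAAT each and Pmvk 1. The 2 motifs share no base in these windows. Of 27 listed genes with a promoter in the table, 21 (77.8%) held CCAAT in at least 1 promoter, against 39.4% of the 14453 genes on the array with a promoter there. TCACNCCAC was found in 1 of 27, against 1.27% of those genes. Over all 32851 promoters, 33.8% held CCAAT and 1.05% held TCACNCCAC in the same window. CCAAT was present in 3 of 4 genes called higher in the newborn cell and 3 of 3 called higher in the embryonic cell that had a promoter listed, and in 15 of 19 with no call. Fdps, Fdft1, Sqle, Scd1, Scd2, Fads1 and Fabp5 have no promoter entry. A match is a description of letters and not evidence of a bound site.

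Among the 11 genes from squalene to cholesterol, 5 were above the limit in the newborn cell, 6 in the embryonic cell and 3 in both. The squalene epoxidase gene Sqle, a rate-limiting step, was nearly the same in the 2 cells, with 4198 in the newborn cell and 4435 in the embryonic cell (1.06-fold). The reductase Dhcr7, which makes cholesterol in the last step of its branch, had 3126 in the newborn and 4506 in the embryonic cell, and the desaturase Sc5d, just before it, had 889 in the newborn and 1456 in the embryonic cell. These 3 were read in both cells and differed by less than the 4-fold size.

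Squalene synthase (Fdft1), the first enzyme committed to sterols, had 148 in the newborn cell and 1980 in the embryonic cell and was at least 5.67-fold higher in the embryonic cell. Another Fdft1 probe set (newborn 11.5, embryonic 3085) gave at least 8.84-fold, and the other 2 were at background. The sterol C14 reductase gene Tm7sf2 had 58.5 in the newborn and 2226 in the embryonic cell, at least 6.38-fold higher in the embryonic cell, and kept this call under all 7 alternatives. Cyp51, the sterol demethylase that acts just before it, had 56.0 in the newborn and 1248 in the embryonic cell. Its bound of 3.58-fold toward the embryonic cell missed the 4-fold size, which it passed with the lower limits (log2 ratio -3.78 at the 95th percentile). Its other 2 probe sets were at background in both cells, and the mean over the 3 put both cells below their limits. The E12.5 signals of Fdft1, Tm7sf2 and Cyp51 also lay between 1000 and 5000, where a P0 signal below the limit was common among all genes (40.6%).

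Ebp and Lss had the opposite pattern. The sterol isomerase gene Ebp had 1287 in the newborn cell and 43.9 in the embryonic cell, at least 4.99-fold higher in the newborn cell on its only probe set, a call lost under scaling to the spike-ins (log2 ratio 1.45). Lanosterol synthase (Lss), which closes the sterol rings, had 4195 in the newborn and 34.8 in the embryonic cell on the probe set that stands for it. By that probe set Lss was at least 16.3-fold higher in the newborn cell. Its other 2 probe sets read 23.0 and 24.0 in the newborn cell and 877 in the embryonic cell on each, at least 2.51-fold the other way. The probe sets of Lss thus disagreed in direction, and the mean over them gave a log2 ratio of 0.22 with no call. Msmo1, Nsdhl and Hsd17b7, which together remove the methyl groups at C4 of the sterol ring, were above the limit in neither cell, with signals up to 208 in the newborn cell and 197 in the embryonic cell. Another probe set of Hsd17b7 (newborn 341, embryonic 4.88) lay just under the P0 limit.

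None of the 5 sterol sensing genes was called, although Srebf2 had a further probe set past the 4-fold size toward the newborn cell. Insig1, an SREBP target that also retains SREBP in the endoplasmic reticulum, had 2308 in the newborn cell and 2331 in the embryonic cell (1.01-fold). Its relative Insig2 was at background (newborn 112, embryonic 125). Scap, the SREBP escort, had 7249.7 in the newborn and 4462 in the embryonic cell. Srebf2, the SREBP gene of the sterol branch, had 5191 in the newborn and 2445 in the embryonic cell, 2.12-fold higher in the newborn cell, and its other probe set (newborn 3074, embryonic 367) was 8.37-fold higher there. Averaged over both probe sets Srebf2 reached the 4-fold size (log2 ratio 2.08). Srebf1, the SREBP gene of the fatty acid branch, was close to the limit with 537 in the newborn and 314 in the embryonic cell.

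Fatty acid synthesis was read in both cells at all 3 steps. Acaca, the carboxylase that makes malonyl-CoA and sets the rate of the route, had 3300 in the newborn cell and 433 in the embryonic cell and was 7.62-fold higher in the newborn cell. Its other probe set was at background (newborn 107, embryonic 16.7), and the mean over the 2 lost the call (log2 ratio 1.20). Fatty acid synthase (Fasn) had 2463 in the newborn and 1376 in the embryonic cell. Acly, which supplies cytosolic acetyl-CoA to both routes, leaned the other way with 2599 in the newborn and 5890 in the embryonic cell, and its other 2 probe sets above a limit had the same sign. Neither Fasn nor Acly reached 4-fold.

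The desaturases held the contrast between relatives. Scd1 had 22.1 in the newborn cell and 3493 in the embryonic cell and was at least 10.0-fold higher in the embryonic cell, on 1 of its 2 probe sets, the other being at background (newborn 2.01, embryonic 4.09). Scd2, a paralog that puts the same double bond into saturated acyl chains and is prominent in brain, had 15471 in the newborn and 21370.1 in the embryonic cell, within 1.38-fold. Another Scd2 probe set (newborn 946, embryonic 2113) was 2.23-fold higher in the embryonic cell. Among the desaturases of polyunsaturated fatty acids, Fads1 had 1942 in the newborn cell and 9884 in the embryonic cell, 5.09-fold higher in the embryonic cell with both cells above the limit, and its other probe set was at background (newborn 101, embryonic 13.1). Fads2, which acts earlier in the same route, was read in the embryonic cell alone on all 3 probe sets, with signals of 140, 54.2 and 5.33 in the newborn cell and 641, 792 and 2125 in the embryonic cell. The last of these was at least 6.09-fold higher in the embryonic cell, while the probe set that stands for the gene had a bound of 1.84-fold and no call. The mean over probe sets ended the calls of Scd1 (0.44, both cells then below their limits) and Fads1 (0.30). It made a call of Scd2 (-2.10), whose remaining probe set was at background.

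Of the elongases among the synthesis genes, Elovl5 and Elovl6 were read in both cells and differed by less than 4-fold. Elovl5, which lengthens polyunsaturated chains, had 9589 in the newborn cell and 4620 in the embryonic cell, 2.08-fold higher in the newborn cell. Elovl6, which lengthens palmitate, had 8569 in the newborn and 6475 in the embryonic cell. Both had another probe set above the limits with the same sign and under 3-fold. Elovl1, which makes very long saturated chains, was at background on all 4 probe sets. Fabp5, the fatty acid binding protein of epidermis, neural progenitors and glia, had 18237.5 and 13835 on its 2 probe sets in the newborn cell and 5720 and 4842 in the embryonic cell. Its ratios of 3.19-fold and 2.86-fold toward the newborn cell agreed between the 2 probe sets and lay under the 4-fold size.

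**Figure D3:**
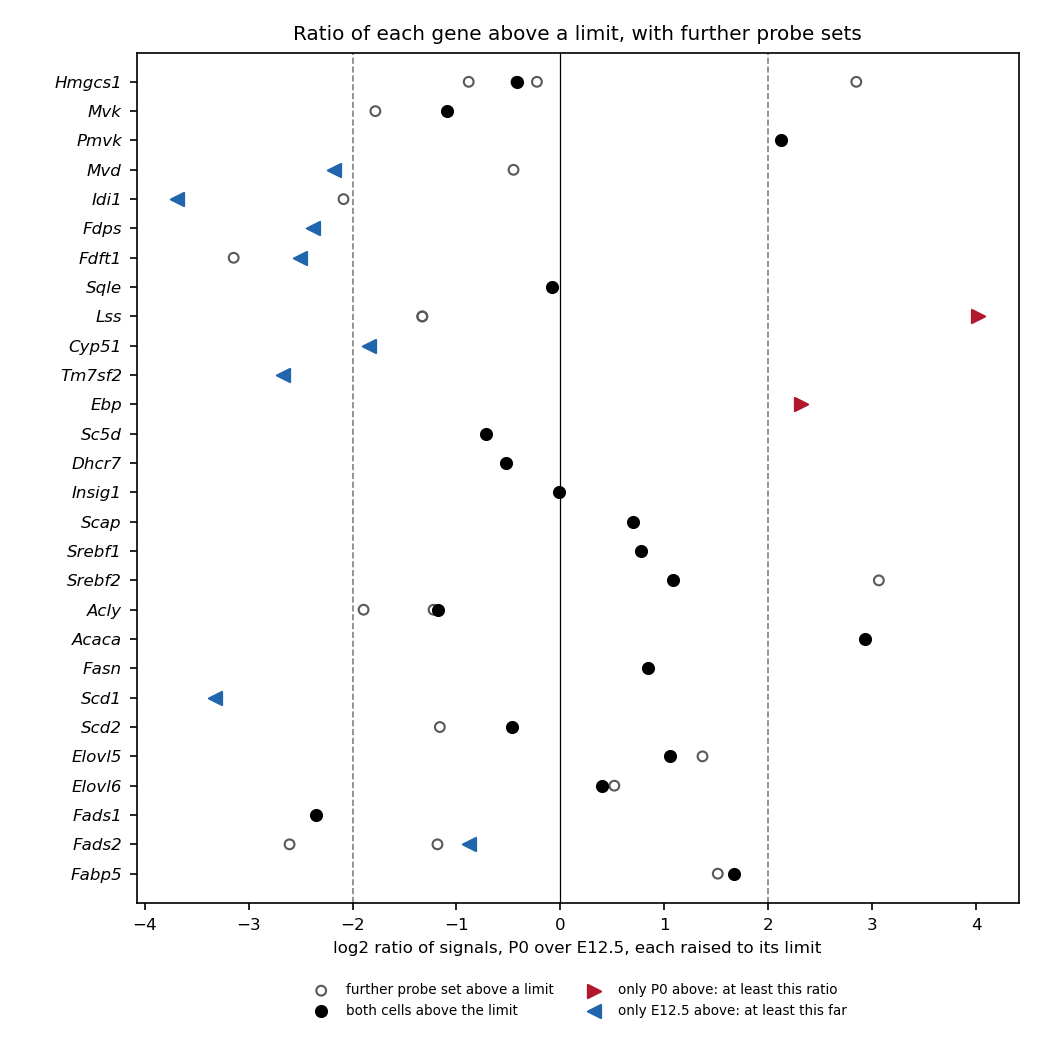
Log2 ratio of P0 over E12.5 for the 28 genes above a limit in at least 1 cell, each signal raised to its limit. Filled points have both cells above the limit, triangles are lower bounds on the size, open circles are further probe sets, and dashed lines mark 4-fold; Idi1, Fdft1 and Fads2 have every plotted probe set on the E12.5 side, and Lss and Hmgcs1 have probe sets on both sides.

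Of the 11 called genes, 4 had a further probe set above a limit, and for Idi1, Fdft1 and Mvd it had the same sign. Lss was the exception. Over all 3009 called genes, 987 had a further probe set above a limit and 780 of these agreed in sign throughout.

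Other lipid genes, which are not among the synthesis genes above, were taken in 6 lists, and 70 of them were measured. Of these 70, 35 passed the limit in the newborn and 32 in the embryonic cell. By the same rule 16 (22.9%) were called higher in the newborn cell, beside 9.24% of all genes. Called higher in the embryonic cell were 5 (7.14%), beside 7.30% of all genes. Under scaling to the spike-ins these calls were 11 for the newborn and 8 for the embryonic cell. With the signals as deposited, 16 of the 35 above the newborn limit were called higher there, against 1681 of 5161 among all genes. In the embryonic cell these numbers were 5 of 32 and 1328 of 5504. Among 14 genes of sterol uptake, traffic and efflux, 4 were called higher in the newborn cell and 0 in the embryonic cell. They were the sterol carrier Stard4 (5378 in the newborn cell and 42.9 in the embryonic cell, at least 20.8-fold), the lipoprotein receptor Scarb1 (newborn 4809, embryonic 11.7, at least 18.6-fold), the apolipoprotein E and reelin receptor Lrp8 (newborn 3468, embryonic 96.7, at least 13.4-fold) and the sterol exporter Abcg1 (newborn 1384, embryonic 22.3, at least 5.36-fold). The lysosomal sterol carrier Npc2 was within 1.10-fold (newborn 13146, embryonic 11961), and Apoe, Abca1, Npc1 and Vldlr were at background in both cells.

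Among genes that process SREBP or degrade sterol-regulated proteins, 2 (28.6%) were called higher in the newborn cell and 1 (14.3%) in the embryonic cell. The shares of all genes were 9.24% in the newborn and 7.30% in the embryonic cell. The ubiquitin ligase Rnf139, which turns over HMG-CoA reductase, had 64.3 in the newborn cell and 13725 in the embryonic cell, at least 39.3-fold higher in the embryonic cell. Mbtps1, the Golgi protease that makes the earlier cut in SREBP, had 3793 in the newborn and 494 in the embryonic cell and was 7.69-fold higher in the newborn cell. Mbtps2, which makes the later cut, had 1024 in the newborn and 1451 in the embryonic cell, and Rnf145 had 6621 in the newborn and 6560.5 in the embryonic cell. Erlin2, an adaptor in the degradation of HMG-CoA reductase, was 4.10-fold higher in the newborn cell (newborn 5696, embryonic 1390.1). These 7 measured genes thus went in both directions. The 7 measured genes of other sterol and isoprenoid enzymes had 1 call (14.3%) each way, beside the same shares of all genes. Pdss2, a subunit of the synthase that makes the side chain of coenzyme Q, was at least 10.8-fold higher in the newborn cell (newborn 2795, embryonic 31.9), and Fnta, a subunit of protein farnesyltransferase, at least 4.15-fold higher in the embryonic cell (newborn 109.6, embryonic 1447). The partner subunit Fntb was read in both cells (newborn 1689, embryonic 689).

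In other fatty acid synthesis and elongation, 4 of 18 genes (22.2%) were called higher in the newborn cell, beside 9.24% of all genes. Called higher in the embryonic cell was 1 (5.56%), beside 7.30%. Mid1ip1, an activator of acetyl-CoA carboxylase, had 5139 in the newborn cell and 58.4 in the embryonic cell, at least 19.9-fold higher in the newborn cell. Acacb, the mitochondrial counterpart of Acaca, was at least 6.99-fold higher in the newborn cell (newborn 1804, embryonic 26.8), as were Fads3 (newborn 2488, embryonic 20.1, at least 9.64-fold) and the dehydratase Hacd1 (newborn 2333, embryonic 8.32, at least 9.04-fold). Hsd17b12, the ketoacyl reductase of chain elongation, had 48.2 in the newborn and 4805 in the embryonic cell, at least 13.8-fold higher in the embryonic cell. Its partner enzyme Tecr was read alike (newborn 10981, embryonic 13536).

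Fatty acid oxidation was read broadly, with 8 of 11 genes above the limit in the newborn cell and 10 in the embryonic cell. Of the 11, 3 (27.3%) were called higher in the newborn cell, beside 9.24% of all genes. Called higher in the embryonic cell were 2 (18.2%), beside 7.30%. Higher in the newborn cell were Acadvl (newborn 4037, embryonic 547, 7.38-fold), Acaa2 (newborn 5085, embryonic 1101, 4.62-fold) and Hadha (newborn 8910.0, embryonic 1972, 4.52-fold), all enzymes of the mitochondrial spiral. Echs1 of the same spiral was at least 4.44-fold higher in the embryonic cell (newborn 82.4, embryonic 1551), and so was Cpt1c, the carnitine palmitoyltransferase relative of neurons (newborn 339, embryonic 2130.5, at least 6.10-fold), whose P0 signal lay just under the limit. For binding and activation, 2 of 13 genes (15.4%) were called, both higher in the newborn cell, where the share of all genes was 9.24%. They were the acyl-CoA synthetase Acsl4 (newborn 3526, embryonic 181, at least 13.7-fold) and the transporter Slc27a1 (newborn 2121, embryonic 184, at least 8.22-fold). Fabp3, Fabp4 and Fabp7 were at background in both cells, so of the 7 family members measured here Fabp5 was the only one read.

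**Figure D4:**
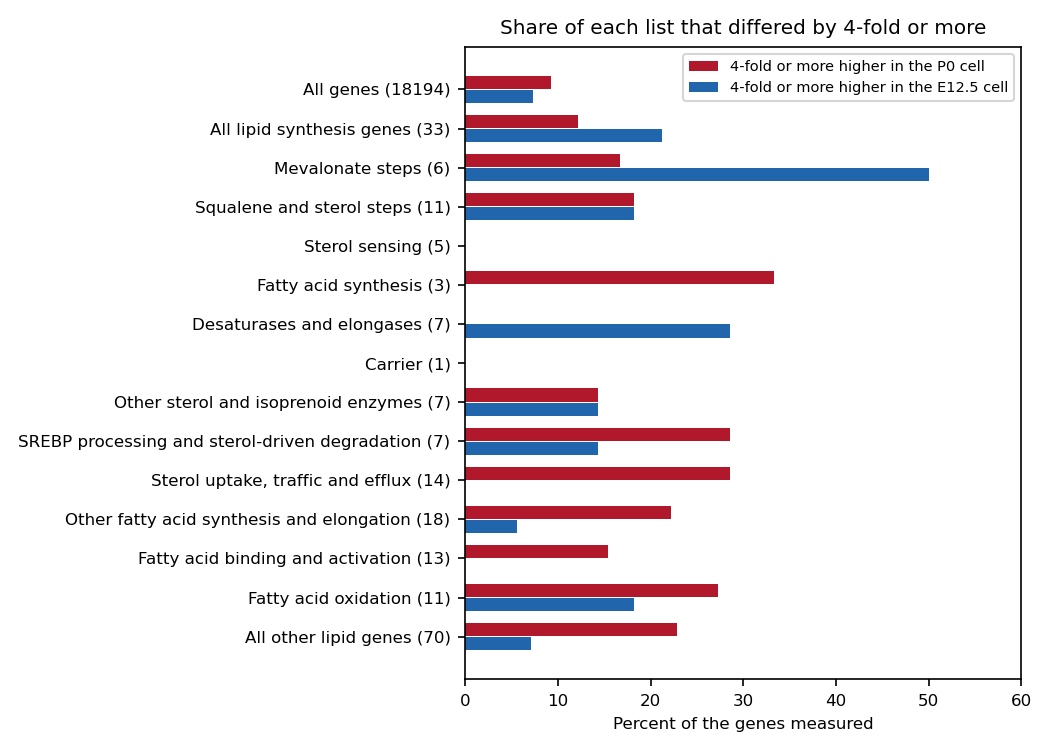
Percent of the measured genes of each list (number in brackets) that were 4-fold or more higher in the newborn cell (upper bar) or the embryonic cell (lower bar), 1 cell per age. The mevalonate steps have 3 of 6 on the E12.5 side and 1 on the P0 side, sterol uptake, traffic and efflux 4 of 14 on the P0 side and 0 on the other, and all genes 9.24% on the P0 side and 7.30% on the E12.5 side.

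Markers of other cell types differed between the cells as well. Of 8 glial genes, 7 were above the limit in the newborn cell and 3 in the embryonic cell, with a summed signal of 40945.5 in the newborn cell and 13290.2 in the embryonic cell. Called higher in the newborn cell were 4, and Rlbp1 gave the largest part of the newborn sum (newborn 16125, embryonic 31.1). Glul leaned the other way (newborn 5024, embryonic 8569). Of 6 mesenchymal genes, 2 were above it in the newborn and 0 in the embryonic cell (Col1a2 and Pdgfra, with Col1a1 and Col3a1 at background), with sums of 6066 in the newborn and 398 in the embryonic cell. None of 6 microglial, 6 surface ectoderm, 4 measured adipocyte or 4 measured photoreceptor genes passed the limit in either cell. Of 6 vascular genes, only Rgs5 passed, in the newborn cell (newborn 833, embryonic 47.9), and the sums were 1308 in the newborn and 242 in the embryonic cell. Of 4 measured ganglion cell genes, only Gap43 passed, in the embryonic cell (newborn 127, embryonic 1457, at least 4.17-fold), with sums of 346 in the newborn and 1662 in the embryonic cell. Of 8 lens genes, only Cryba2 passed, also in the embryonic cell (newborn 171, embryonic 342), with sums of 629 in the newborn and 581 in the embryonic cell.

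Of 14 ciliary margin genes, the markers closest to the label of both cells, 9 passed in each cell, and Mitf, Msx1 and Bmp4 in neither. Their summed signal was 49258 in the newborn cell and 87655.5 in the embryonic cell. Bmp7 and Optc were called higher in the newborn cell. Wfdc1 (newborn 414, embryonic 10696, 25.8-fold), Cdon (newborn 1193, embryonic 12766, 10.7-fold), Gja1 and Otx1 were called higher in the embryonic cell. Markers of the labelled tissue therefore differed between the cells too. The part of these cell type differences in the lipid results was not tested.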

How the data were processed

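Each array measured 1 cell, newborn (P0) or embryonic (E12.5). Per the labels' protocols, cDNA primed with oligo dT was tailed and amplified by PCR before labelling. The deposited values are linear intensities from the authors' MAS5 run, per the submitters' processing notes. Its version is not given in the sources used here. Trimmed by 2% at either end, the mean signal was 500.0 on each array. There are no detection calls, and the number of arrays limits the precision.

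Of 45101 probe sets, 34958 had 1 gene symbol in the platform annotation and 932 several, and 9211 had no entry in it. Symbols of 34754 were updated by gene identifier through RefSeq (GRCm38.p6). Each of 18194 genes was represented by its probe set of highest mean log2 signal. The limit came from genes for smell and taste receptors, keratin-associated proteins, prolactin relatives, caseins, defensins, urinary, sperm and egg coat proteins. Python 3.11.15, numpy 2.4.6 and pandas 2.3.3 were used. The calling rule was run on simulated data with less noise than the SD between probe sets. That run gives no error rate for the calls made here. Promoter sequences are RefSeq's on GRCm38.p6.

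The genes, lists and rules were chosen with earlier results of these data known, so counts over them are descriptions. All synthesis genes were named, and examples could be named among other lipid genes called or above both limits and among markers above a limit. Other lipid genes and markers named as at background were added after their values were seen. The alternatives were probe set means, no cross-hybridising probe sets, other limits, quantile normalisation, spike-in scaling, a pseudocount of 100 without a floor, and call sizes of 2-fold and 8-fold.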

Additional observations from a re-analysis of the deposited data

How the results depend on the processing

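Of 196 values of single synthesis genes under the alternatives, 125 moved by less than the SD of 0.83 between probe sets and 67 by more. The other 4 were values of called genes that changed sign. Sign changes were set apart for called genes only, and values of uncalled genes were sorted by size of move alone. Some of these changed sign too, such as Hmgcs1 (-0.41 to 1.28) and Elovl6 (0.40 to -0.96) with the mean over probe sets. The 4 values of called genes did so with the mean over probe sets, which takes in probe sets at background in both cells. Their log2 ratios were then 0.44 for Fdps and Scd1, 0.26 for Fdft1 and 0.30 for Fads1. Fdps and Scd1 were then below both limits, and 0.44 is only the ratio of the limits (349 over 258). Every Fdft1 probe set was below the limit in the newborn cell and dimmer there as deposited. The sign of Fdft1 thus also came from raising its newborn signal to the limit. The numbers of synthesis genes above the limits stayed within 1.5 times under every alternative tried. They were lowest with the mean over probe sets, at 14 in the newborn cell, 20 in the embryonic cell and 12 in both.

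Synthesis genes called higher in the newborn cell numbered 4, with 2 under spike-in scaling, 7 at 2-fold and 1 at 8-fold. Those called higher in the embryonic cell numbered 7, with 3 under the mean over probe sets and 2 at 8-fold. They numbered 9 with the 95th percentile as limit, with limits from bacterial controls and under spike-in scaling. With the pseudocount they were 8 and at 2-fold 10. The median log2 ratio of -0.44 became -1.31 under spike-in scaling, where the median of all genes read in both cells was -0.86, and it was 0.24 with the mean over probe sets. Requiring every further probe set above a limit to have the same sign, an alternative chosen after seeing the data, left 3 calls for the newborn and 7 for the embryonic cell.

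The 16 other lipid genes called higher in the newborn cell became 8 with the mean over probe sets, 11 under spike-in scaling and 9 at 8-fold. The 5 called higher in the embryonic cell became 3 for probe set means, 10 with the 95th percentile as limit, 10 with limits from bacterial controls, 8 under spike-in scaling, 9 with the pseudocount, 9 at 2-fold and 2 at 8-fold.

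Over all genes, 1681 and 1328 calls (P0 and E12.5) became 863 and 700 with the mean over probe sets, 1048 and 2115 under spike-in scaling, 2002 and 2012 with the 95th percentile as limit, 2006 and 2004 with limits from bacterial controls, 2477 and 2280 at 2-fold and 936 and 582 at 8-fold. The share on the P0 side was 55.9%, and 33.1% under spike-in scaling. No paired analysis was possible because each age has 1 cell. Genes just above a limit in 1 cell have low bounds whatever their true ratio.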
